A study of Mus musculus with 6 samples.

Results

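The miR-199 and miR-214 group was read by 5 of the 1078 mouse microRNA (miRNA) reporters on the array, mmu-miR-199a-5p, mmu-miR-199a-3p, mmu-miR-199b*, mmu-miR-214 and mmu-miR-214* (written below without the species prefix). They were chosen by name, and all 5 were tested. In this older nomenclature an asterisk marks the arm of a hairpin that was taken to be the minor product. miR-214* is the 5p arm and miR-214 the 3p arm of a single hairpin, and miR-199b* is the arm now called miR-199b-5p. The RNA came from aortic smooth muscle cells, which contract and build matrix in the vessel wall, taken from C57BL/6 mice 8 weeks old (abdominal aorta) and passaged in culture. Untreated cultures (control, n = 3) were compared with cultures given TNF-α (n = 3), a cytokine that drives inflammation, and no other treatment or allele is named for either group. Per the labels the cultures were grown and harvested separately, although the descriptions of 2 TNF-α samples carry the same replicate number, 3; their titles differ and their arrays hold different values, so they were counted as separate samples, and the sources used here give neither the dose and duration of TNF-α nor the passage number.

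miRNAs are cut as a short duplex from a hairpin, and either strand of the duplex can be loaded into an Argonaute protein to repress mRNAs that match its seed, bases 2 to 8 of the miRNA. The miR-199 and miR-214 hairpins are known for their expression in mesenchymal cells, where the transcription factor Twist1 drives Dnm3os, the noncoding RNA that carries a miR-199a hairpin together with the miR-214 hairpin. Known targets include the caveola protein caveolin-1 and the NF-kB pathway kinase IKKβ for miR-199a-5p, and the growth regulators mTOR and Met for miR-199a-3p. The arms of a hairpin therefore have different seeds and different targets although they start from the same precursor.

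RefSeq sequences on the GRCm38.p6 build were found for 4 of the 5 members, and miR-199b* is named only. They are shown because the seed separates the arms that are compared here; written 5′ to 3′ with the seed in capitals, they read as follows.
miR-199a-5p: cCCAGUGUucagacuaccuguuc
miR-199a-3p: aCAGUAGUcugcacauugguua
miR-214: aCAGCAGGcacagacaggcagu
miR-214*: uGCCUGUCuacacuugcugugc
The 4 seeds differ from each other, and the seed of miR-199b* is taken up below. In the RefSeq table miR-199b-3p shares its seed, and its whole sequence, with miR-199a-3p, and miR-761 (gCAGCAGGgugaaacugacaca) shares the seed of miR-214; no other listed miRNA has the seed of one of these 4 members. The reporter for miR-761 read 69.3 to 76.1 in control and 78.2 to 86.4 with TNF-α, which was under the background limit explained below, and it was not tested.

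The hairpins are shown next because they decide which members share a precursor. The arms that the table lists are in capitals.
Mir199a-2 hairpin: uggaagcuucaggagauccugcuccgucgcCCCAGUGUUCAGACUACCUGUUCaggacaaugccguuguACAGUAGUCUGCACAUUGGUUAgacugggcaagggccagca
Mir214 hairpin: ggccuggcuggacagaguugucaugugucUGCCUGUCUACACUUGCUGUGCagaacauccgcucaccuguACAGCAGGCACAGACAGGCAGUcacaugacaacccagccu
Mir199b hairpin: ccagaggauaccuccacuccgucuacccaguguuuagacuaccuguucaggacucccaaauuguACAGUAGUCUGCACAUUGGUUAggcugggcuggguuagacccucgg
Mir199a-2 (chr1:162217814-162217923, plus strand) and Mir214 (chr1:162223368-162223477, plus strand) both lie within Dnm3os, on its strand, and within the span of the dynamin gene Dnm3 on the opposite strand. Mir199a-1 (chr9:21496495-21496564, minus strand) lies within Dnm2, and Mir199b (chr2:32318460-32318569, plus strand) within Dnm1, each on the strand opposite to its dynamin gene.

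**Figure D1:**
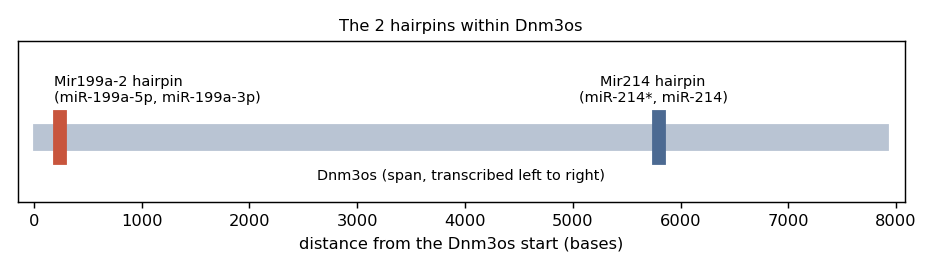
Map of Dnm3os, with the distance from its start in bases on the x axis. The Mir199a-2 hairpin begins 191 bases and the Mir214 hairpin 5745 bases after the start of the 7928-base span, with 5444 bases between them.

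The reporters cannot resolve every source of a mature arm. Mir199a-1 and Mir199a-2 give the same miR-199a-5p and the same miR-199a-3p, so neither arm is read from Dnm3os alone. miR-199b-3p has the same sequence as miR-199a-3p, so the miR-199a-3p reporter sums over Mir199b as well. The best ungapped match of miR-199a-5p in the Mir199b hairpin, at bases 26 to 48, differs from it by 1 substitution, C10U, counted from the 5′ end of miR-199a-5p. This base lies outside the seed. If miR-199b* begins at the first base of the match, it has the same seed as miR-199a-5p. The files used here do not show the reporters' own sequences, and whether the miR-199a-5p and miR-199b* reporters each bind the other's target was not tested.

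Each reporter gave 1 median density per array, a linear fluorescence value that still holds the background. The background peak was 66.3 to 75.6 in control and 80.9 to 89.7 with TNF-α, and 306 to 344 against 242 to 256 reporters exceeded the background limit, which is the peak plus 3 SD of the values below it. Both measures separated the groups, so an effect of TNF-α and a technical difference between array sets cannot be told apart. The cells carried the smooth muscle markers miR-143 and miR-145 above the limit on all 6 arrays, with miR-145* above it on 1 control array and miR-143* on none. All 6 epithelial and 4 of 5 blood cell markers were above the limit on no array, and of 2 endothelial markers miR-126-3p was above it on all 6. Of 4 striated muscle markers on the array, miR-206 was above it on all 6 arrays and miR-133b on 2 control arrays. The mean density of miR-206 was 256.6 in control and 188.6 with TNF-α. In the test described below miR-206 and miR-145* were called lower (limma adjusted p = 0.00339 and 0.00496). The summed density above the peak was 7582 to 9423 in control and 8619 to 10201 with TNF-α for the smooth muscle list. It was 47.1 to 81.8 and 35.7 to 54.4 for the endothelial list, 29.2 to 39.4 and 0 to 20.6 for the blood cell list, 2.76 to 34.4 and 0 to 23.95 for the epithelial list, and 216.5 to 236.5 and 114.7 to 157.1 for the striated muscle list. Densities under the peak entered these sums as 0, and the peak was higher with TNF-α. Nearly all markers on the blood cell and epithelial lists were under the limit. The sums of these lists lie at the background and do not measure such cells. The part of the shifts of all lists in the changes below was not tested. In bulk RNA, fewer cells of a type and less of a miRNA per cell cannot be told apart.

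The 5p arms of the miR-199 hairpins, miR-199a-5p and miR-199b*, rose with TNF-α, whereas miR-199a-3p, miR-214 and miR-214* did not pass the test. Both rises were modest, 1.33-fold and 1.38-fold. They may not be separate signals, since binding of each reporter to the other's target was not tested. In limma's moderated test, Benjamini-Hochberg adjusted across the 642 reporters tested and called under 0.05, 2 of the 5 members were higher and 0 lower, beside 12.9% of all tested reporters called higher, 9.81% called lower and 22.7% called in all. miR-199a-3p was lower at an unadjusted limma p of 0.0315. On the normalized scale 3 of the 5 members had groups that did not overlap, as did 40% of all tested reporters. The median change of the 5 members was -0.03 on the log2 scale and that of all tested reporters 0.0078. Fold changes are TNF-α over control after background correction, addition of an offset of 50 and quantile normalization, and the offset makes them smaller than the true change for dim reporters.

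miR-199a-5p read 1181, 1194 and 1080 in control replicates 1, 2 and 3 and 1272, 1564 and 1346 in TNF-α replicates 1, 2 and 3. Every TNF-α density lay above every control density, with means of 1394 ± 152.2 and 1152 ± 62.2 (SD, n = 3 each). After normalization the change was 0.42 ± 0.08 on the log2 scale (SE, 95% interval 0.23 to 0.60, limma adjusted p = 0.0102). The call rested on how the arrays were scaled, since the change was 0.27 (limma adjusted p = 0.0642) with no normalization and 0.21 (limma adjusted p = 0.114) when arrays were set to the same median of detected reporters. In the authors' processed intensities, which were 1063 to 1124 in control and 1188 to 1426 with TNF-α, it was 0.24 (limma adjusted p = 0.0676). The direction was the same in each, and the call was kept with each array left out in turn.

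miR-199b* read 347.6, 342.1 and 326.2 in the controls and 396.7, 457.2 and 412.7 with TNF-α. The groups did not overlap here either, at 339 ± 11.1 and 422 ± 31.3 (SD, n = 3 each), and every density was more than 3 times its array's background limit. On the normalized scale 20.4% of all tested reporters had TNF-α values above every control, as miR-199b* and miR-199a-5p had. The change was 0.47 ± 0.07 (SE, 95% interval 0.30 to 0.63, limma adjusted p = 0.00496). It stayed past the threshold with no normalization (0.31, limma adjusted p = 0.0273) and in the processed table (0.27, limma adjusted p = 0.0350), and missed it with median scaling (0.25, limma adjusted p = 0.0607).

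miR-199a-3p, the arm opposite miR-199a-5p, read 9364, 9368 and 8281 in the controls and 7077, 8599 and 8165 with TNF-α. The densities of the groups overlapped, because control replicate 3 lay below TNF-α replicate 2, and the means were 9004 ± 626 and 7947 ± 784 (SD, n = 3 each). On the normalized scale all 3 TNF-α arrays lay below all controls, at -0.25 ± 0.10 (SE, 95% interval -0.47 to -0.03, limma adjusted p = 0.0986). Quantile normalization gives reporters of the same rank the same value, and among these bright reporters such values recur. For example, 13.14 was the log2 value of miR-199a-3p in control replicates 1 and 2 and of miR-214 in control replicate 3. The separation and its SE therefore partly hold steps of rank. The change was negative under all 19 alternatives, from -0.34 to -0.12, and passed the threshold under 0 of them. The value nearest to 0, -0.12, was that without TNF-α replicate 1, whose density was the lowest of the 6.

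miR-214, the 3p arm of the other Dnm3os hairpin, read 8622, 9021 and 7668 in the controls and 8780, 8773 and 8149 with TNF-α. The TNF-α values fell inside the control range, with means of 8437 ± 695 and 8567 ± 363 (SD, n = 3 each). Its change was -0.03 ± 0.07 (SE, 95% interval -0.19 to 0.13, limma adjusted p = 0.787) and turned to 0.024 with no normalization, 0.015 with cyclic loess and 0.034 in the processed table. This interval, from quantile-normalized values, leaves out a change as large as that of miR-199a-5p in the same setting (0.42) in either direction. That need not hold in other settings. In the processed table the change of miR-199a-5p was smaller, 0.24, and the SE of miR-214 larger, 0.096.

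miR-214*, the 5p arm of the same hairpin, was dim. It read 113.1, 118.6 and 104.5 in the controls, each above the array's limit of 92.9, 100.7 and 89.0. With TNF-α it read 133.0, 100.5 and 108.8 against limits of 123.9, 127.9 and 115.5, so only TNF-α replicate 1 exceeded its limit. The normalized change was -0.16 ± 0.11 (SE, 95% interval -0.41 to 0.10, limma adjusted p = 0.365). It was -0.031 without TNF-α replicate 2 and -0.017 with no normalization, so its size depended on 1 array and on the scaling.

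**Figure D2:**
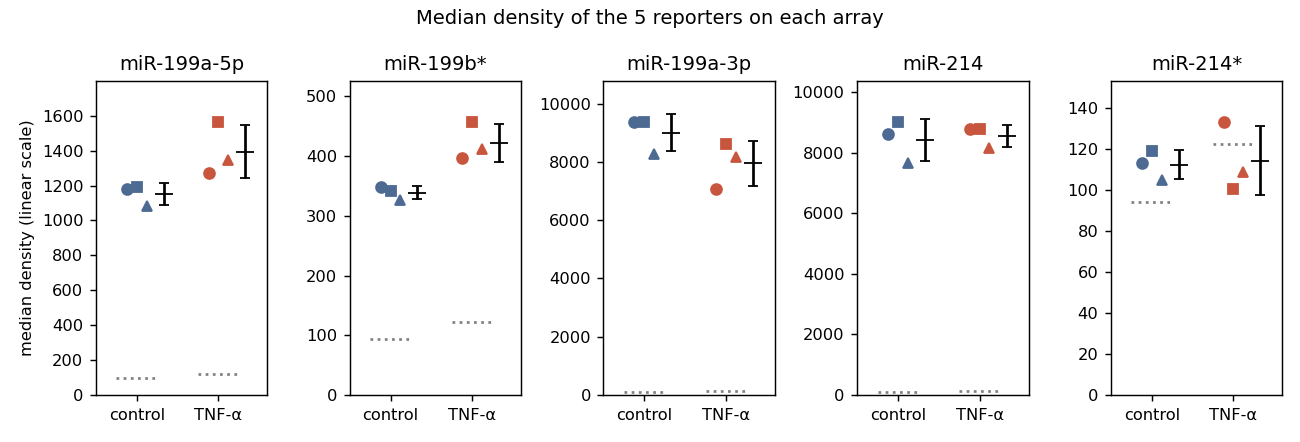
Median density (y axis, linear from 0, a separate scale for each miRNA) on each array of the control and TNF-α groups; circles, squares and triangles are replicates 1, 2 and 3, black marks the group mean with SD, and the dotted line the mean background limit of the group. The TNF-α points lie above all controls for miR-199a-5p and miR-199b*, and overlap them for miR-199a-3p, miR-214 and miR-214*.

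The deposited files also give a standard deviation for each reporter on each array. For miR-199a-3p and miR-214 it was 1.39% to 5.19% of the median density, for miR-199a-5p 3.997% to 9.75%, for miR-199b* 7.37% to 12.7% and for miR-214* 6.72% to 15.1%. What it was taken over is not given in the sources used here, so it entered no test.

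**Figure D3:**
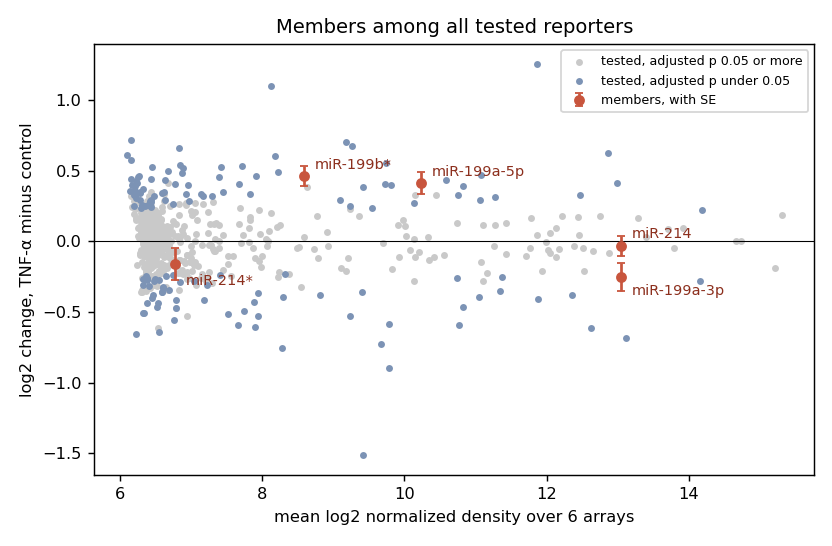
Log2 change, TNF-α minus control (y axis), against the mean log2 normalized density over the 6 arrays (x axis) for the 642 tested reporters; the 5 members are in red with SE bars. miR-199b* (0.47) and miR-199a-5p (0.42) lie among called reporters of middle brightness, miR-199a-3p (-0.25) and miR-214 (-0.03) among the bright ones, and miR-214* (-0.16) at the dim end.

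The ratio of the miR-199a-5p signal to the miR-199a-3p signal rose with TNF-α. This was measured as the ratio of the arms within each array, a value that a shift of all log2 values of an array leaves unchanged. The log2 ratio of miR-199a-5p to miR-199a-3p was -2.99, -2.98 and -2.93 in the controls and -2.48, -2.46 and -2.60 with TNF-α. Every TNF-α array thus lay above every control, as was the case in one direction or the other for 36.1% of the 158 hairpins with both arms tested. The SD within a group, 0.03 in control and 0.07 with TNF-α, was small beside the difference of 0.45 ± 0.08 (SE, 95% interval 0.27 to 0.63), a 1.37-fold shift. It passed limma over those hairpins with an adjusted p of 0.00281, beside 19.6% of them called in either direction and 33.3% (11 of 33) of those with both arms above the background limit on at least 3 arrays. A ratio of signals from 2 reporters does not give the ratio of the molecules. The shift of the ratio shows unequal change of the 2 signals, not which of them changed. The log2 ratio of miR-199a moved toward 0, as did most of the 31 hairpins called, while others such as miR-341 and miR-669c moved away from 0. An effect of TNF-α and a technical difference between array sets cannot be told apart here either.

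Under all 13 alternatives the arm ratio of miR-199a stayed positive and past the threshold, between 0.43 and 0.67, with limma adjusted p of 0.000747 to 0.0241. It was 0.67 with quantile normalization, the setting in which the arms were tested one by one above, and 0.45 in the authors' processed table. The shift of miR-199a was exceeded in size by that of 18 of the 158 hairpins. The largest rises were those of miR-3084 (1.19), miR-1934 (0.86) and miR-467d (0.82), and the largest falls those of miR-341 (-1.07), miR-290 (-0.86) and miR-1224 (-0.81), of which only miR-341 had both arms above the limit on at least 3 arrays. These ratios are of the arm without over the arm with an asterisk, and 5p over 3p for miR-290.

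The arms of miR-214 showed no such shift that passed the test. The log2 ratio of miR-214 to miR-214* was 6.30, 6.30 and 6.14 in the controls and 6.12, 6.52 and 6.22 with TNF-α, so the controls lay within the TNF-α range. The difference was 0.04 ± 0.11 (SE, 95% interval -0.21 to 0.29, limma adjusted p = 0.825). It rose to 0.27 with the background peak subtracted and 0.31 in the processed table and turned to -0.076 without TNF-α replicate 2, none past the threshold. The difference between the shifts of the miR-199a and miR-214 ratios was not tested.

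Within Dnm3os, the arms of miR-199a were also set against miR-214, array by array. The log2 ratio of miR-199a-5p to miR-214 was -2.87, -2.92 and -2.82 in the controls and -2.79, -2.49 and -2.60 with TNF-α, a difference of 0.24 between the means. That of miR-199a-3p to miR-214 was 0.12, 0.055 and 0.11 in the controls and -0.31, -0.029 and 0.0029 with TNF-α, and the difference was -0.21. With quantile normalization these differences were 0.45 and -0.22. The groups did not overlap for either ratio, as for 5 of the 10 pairs of members and, in the tests over all features, 40% of reporters and 36.1% of arm ratios, and TNF-α replicate 1 came close to the controls for miR-199a-5p and lay far below all other arrays for miR-199a-3p. The exact two-sided permutation p was 0.1 for each, the smallest that 3 against 3 arrays allow, and 0.2 after adjustment over the 10 pairs of members. Since other hairpins also give the arms of miR-199a, the share that comes from Dnm3os cannot be told apart.

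The 5p arms of miR-199a and miR-199b kept close to each other. The log2 ratio of miR-199a-5p to miR-199b* was 1.77, 1.82 and 1.71 in the controls and 1.70, 1.79 and 1.70 with TNF-α, so the groups overlapped, and the difference was -0.04 (exact two-sided permutation p = 0.3). The log2 ratio of miR-199a-3p to miR-199b* differed by -0.49 between the groups (-0.72 with quantile normalization), and that of miR-199b* to miR-214 by 0.28 (0.50 with quantile normalization). Both ratios were among the 5 of 10 without overlap, with the same smallest exact permutation p of 0.1. Over the 6 arrays the normalized values of miR-199a-5p and miR-199b* had a Pearson r of 0.99, against -0.58 for miR-199a-5p and miR-199a-3p and -0.07 for miR-199a-5p and miR-214. These correlations mostly hold the difference between the groups, and they are given as a description.

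**Figure D4:**
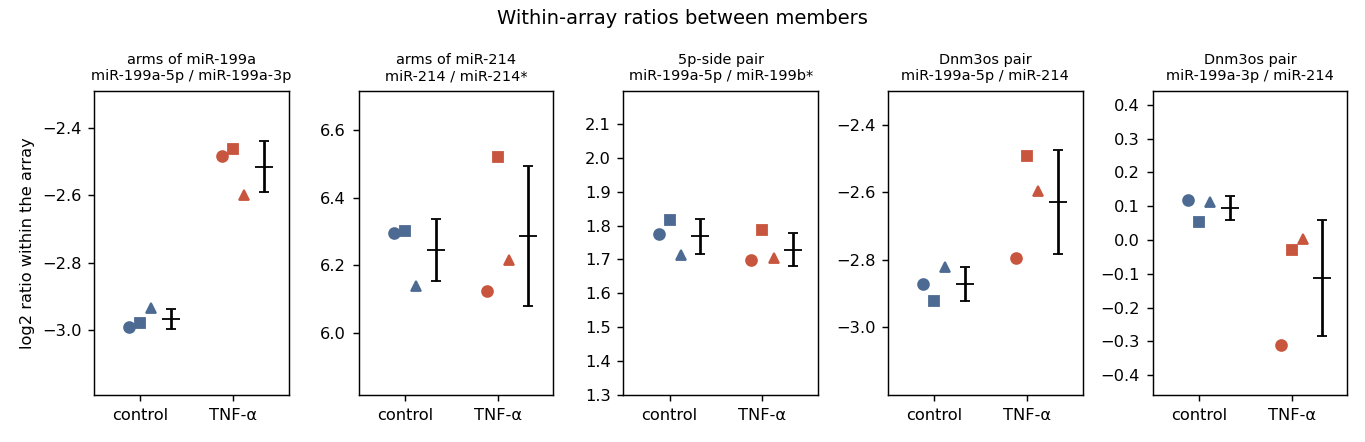
Log2 ratio between a pair of members within each array (y axis, the same span of 0.9 in each panel) for control and TNF-α; circles, squares and triangles are replicates 1, 2 and 3, and black marks the mean with SD. The groups separate for the arms of miR-199a (difference 0.45) and for each of its arms against miR-214 (0.24 and -0.21), and overlap for the arms of miR-214 (0.04) and for miR-199a-5p against miR-199b* (-0.04).

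The reporters with the most similar pattern were sought among 205 others above the background limit on all 6 arrays, by Pearson r of the normalized values over the 6 arrays. Closest to miR-199a-5p were miR-129-2-3p (r = 0.99), miR-15b (0.98) and miR-181a (0.97), whose changes were 0.29, 0.41 and 0.39. Closest to miR-199a-3p were miR-182 (0.97), miR-1895 (0.95) and miR-1897-5p (0.94), with changes of -0.20, -0.35 and -0.32. For miR-214 they were miR-20a (0.92), miR-224 (0.85) and miR-16 (0.81), with changes of -0.05, 0.0047 and -0.11. The arrays form only 2 groups, and these values are a description.

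Most miRNAs on a list of others known from mesenchymal cells did not pass the test. Of 25 listed, 22 were tested, 1 was called higher and 1 lower, and their median change was 0.02. The one called higher was miR-29b, a repressor of collagen mRNAs, at 0.60 ± 0.08 (SE, limma adjusted p = 0.00227). The one called lower was miR-218 at -0.53 ± 0.12 (SE, limma adjusted p = 0.0200), from a mean density of 794 to 484. Among those that did not pass were miR-21 (-0.18), miR-143 (-0.05), miR-145 (0.17) and miR-221 (0.05), abundant miRNAs of smooth muscle cells in culture. The mean density of miR-21 was 36394 in control and 38342 with TNF-α, so its negative change arose with the normalization. The list has no test of its own here, and its counts lie below the shares called over all reporters.

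**Figure D5:**
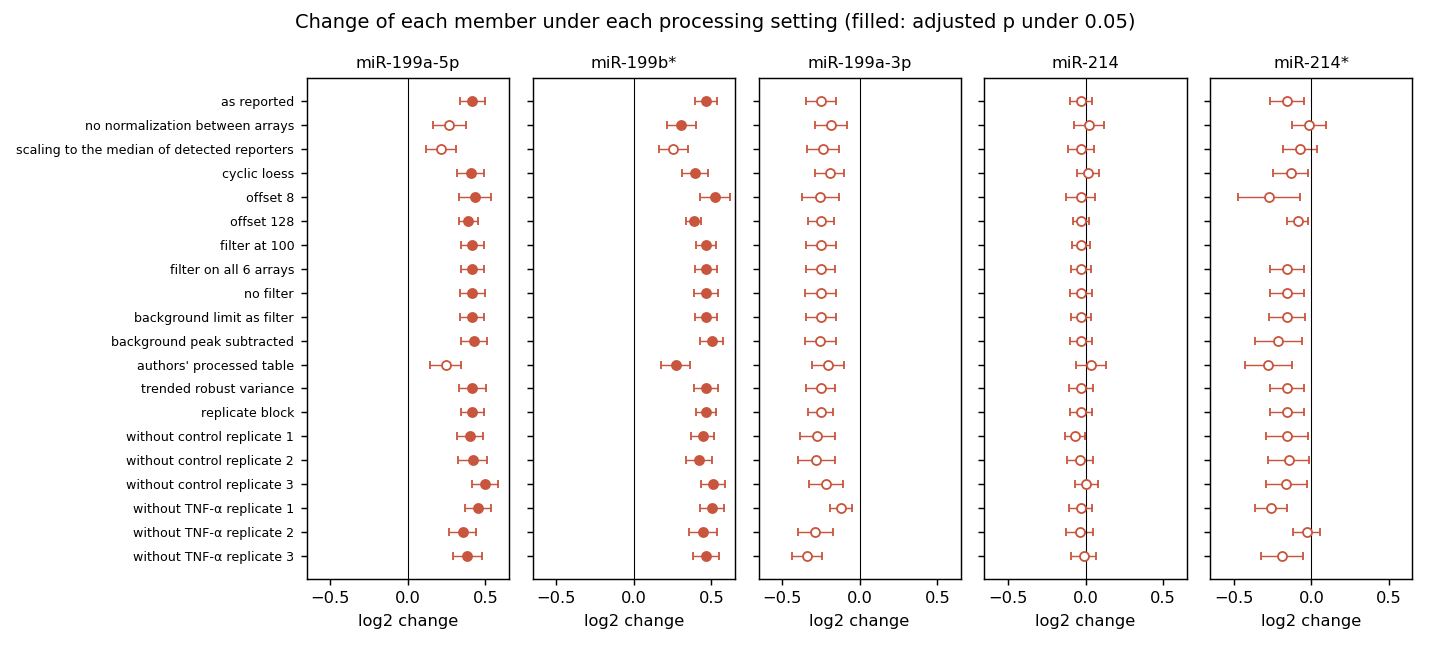
Log2 change, TNF-α minus control (x axis), of each member under the reported setting and each alternative (y axis), with SE bars; filled points had an adjusted p under 0.05. miR-199a-5p and miR-199b* are right of 0 in every setting, with open points for miR-199a-5p at 0.21 to 0.27 and for miR-199b* at 0.25, and miR-199a-3p is left of 0 in every setting with open points.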

How the data were processed

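Total RNA was tailed, tagged and stained with Cy5, so each array has 1 colour, per the labels. For each of 6 arrays the authors deposited a median density and a standard deviation per reporter, linear intensities without background subtraction, and 1 table of processed intensities whose scaling and centring the sources used here do not give. Its column medians ran from 8.39 to 12.0, and all its columns were assigned. The sources used here name neither scanner nor software.

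Densities were corrected by normexp (offset 50), taken to log2 and quantile normalized in limma 3.58.1 under R 4.3.3. Reporters with a corrected density of at least 32 on 3 arrays were tested with the group as the only term. Arm ratios used corrected values without normalization between arrays; arms were paired by reporter name, as 5p over 3p or as the arm without over the arm with an asterisk, since names with an asterisk do not give the side. The procedure was tested on simulated data with independent noise and changes set in bright reporters only. The simulation kept each array's background peak but no other difference between the array sets, and its outcome is not given here. Members, lists, the background limit and tests were chosen with earlier results of these data known. Named are the 5 members, the 3 most similar reporters for 3 members, called members of the mesenchymal list and the hairpins with the 3 largest rises and falls of the arm ratio. The number of arrays limits precision. The p-values rest on the spread between arrays, in which differences between cultures and technical differences cannot be told apart.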

Additional observations from a re-analysis of the deposited data

How the results depend on the processing

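Under 19 alternatives for single members and 13 for arm ratios, 2 members were higher and 0 lower except that 1 was higher with no normalization between arrays, 0 with arrays set to one median of detected reporters and 1 in the authors' processed table; leaving out each array kept 2 higher and 0 lower. miR-214 changed sign with no normalization (0.024), cyclic loess (0.015) and the processed table (0.034), and ranged from -0.068 to 0.0058 with an array left out. The arm ratio of miR-199a ranged from 0.43 to 0.49 and that of miR-214 from -0.076 to 0.12 with an array left out. Of the 10 ratios between members, 6 moved by more than 1 SD with quantile normalization, each away from 0: miR-199a-5p to miR-199a-3p (0.67 against 0.45), to miR-214 (0.45 against 0.24) and to miR-214* (0.57 against 0.29), miR-199a-3p to miR-199b* (-0.72 against -0.49), and miR-199b* to miR-214 (0.50 against 0.28) and to miR-214* (0.62 against 0.32). miR-214* was not tested with the filter at 100. The median change of all tested reporters was 0.14 with no normalization and -0.12 in the processed table, against 0.0078, and the reporters called higher and lower were 163 and 41, and 39 and 81, against 83 and 63. The processed table was filtered on its own values, which left 285 reporters against 642 in the other 2 settings. To its values 32 was added before log2. With the replicate block, 103 reporters were called against 146, and 32 hairpins against 31. The block changed no call of a member or of the arm ratios of miR-199a and miR-214 (miR-199a-5p 0.42, miR-199b* 0.47, arm ratio of miR-199a 0.45). Deviations of same-numbered arrays correlated at 0.042, 0.016 and 0.15, and those of arrays with different numbers at -0.13 to 0.099. These values do not decide whether the numbers, taken from the titles, mark pairs. The arrays are not paired in the reported setting. Filters, offsets, the variance model and arrays left out were tried one at a time. Brightness over background limits miR-214* most, with 1 of 3 TNF-α arrays above the limit.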
